A study of Mus musculus with 2 samples.

Results

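Prostaglandin synthesis and reception in embryonic mouse kidney is described here through 10 genes of the 43346 mouse genes in the deposited tables. They are the cyclooxygenases Ptgs1 and Ptgs2, the terminal synthases Ptges, Ptgis and Ptgds, the breakdown enzyme Hpgd, and the prostaglandin E2 receptors Ptger1, Ptger2, Ptger3 and Ptger4. The genes were listed by name and not ranked by any measured value, but they were chosen with earlier results of these data known. All 10 matched a gene identifier. Total RNA was sequenced from kidneys of B6NCrl mouse embryos at embryonic day 15.5, males and females pooled, with no treatment or engineered allele in the labels. The only group, embryonic kidney, held 2 libraries: replicate 1 from 78 embryos and replicate 2 from 62 embryos, each made from 10 ng of RNA. A whole organ pool averages over all its cell types, so fewer cells of a type and less RNA per cell cannot be told apart. With 1 group there was no condition to compare. The comparisons are between genes, between transcripts and between the 2 pools, and no p-value was computed.

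Prostaglandins are short-lived lipid signals made from arachidonic acid. Phospholipase A2 enzymes release it from membranes, a cyclooxygenase converts it to prostaglandin H2, and a terminal synthase turns that into the E, I or D form. The E2 form acts near its source on receptors that couple to different G proteins: Ptger1 is linked to calcium signalling, Ptger2 and Ptger4 raise cyclic AMP, and Ptger3 mainly lowers it. In the mature kidney these signals act on blood flow, renin release and the handling of salt and water, and mice without Ptgs2 form kidneys with too few and immature nephrons after birth.

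The libraries held 36244861 (replicate 1) and 39415002 (replicate 2) expected counts, the estimated reads per gene. Levels are given as TPM, a relative transcript abundance that is adjusted for transcript length and so can be compared between genes. A gene counts as detected when each library gives it at least 1 TPM. Across the 16157 genes that reached 1 TPM in at least 1 library, Pearson's r of log2(TPM + 1) between the libraries was 0.985, a correlation across genes, which are not independent replicates. The kidney label was checked on markers, which were also chosen with earlier results of these data known. All 8 collecting duct and ureteric tree markers were detected, with a summed 557 TPM in replicate 1 and 502 TPM in replicate 2. Of 6 loop of Henle and macula densa markers 5 were detected, with sums of 77.8 and 70.5 TPM, and Nos1 at 0.79 and 0.75 TPM was the exception. The pools differed in the summed TPM of other marker lists. The sum of 8 smooth muscle and ureter wall markers was 381 TPM in replicate 1 and 767 TPM in replicate 2, that of 6 adrenal cortex markers 46.1 and 149.9 TPM, that of 6 adrenal medulla and nerve markers 28.8 and 123 TPM, that of 6 liver markers 215 and 423 TPM, and that of 6 skeletal muscle markers 332 and 175 TPM.

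Of the 10 genes 8 were detected, beside 62.3% of 21474 protein-coding genes. Ptgs1, Hpgd, Ptgis and Ptges stood between 10 and 25 TPM, Ptger1 stood next, Ptger3 and Ptger4 lay near 4 TPM, and Ptgds, Ptgs2 and Ptger2 were at the low end. The median over the 10 genes was 5.75 TPM in replicate 1 and 6.73 TPM in replicate 2, with undetected Ptgs2 and Ptger2 included. Protein-coding genes had medians of 19.4 and 19.5 TPM over detected genes only, so the sets were not filtered alike. To say whether neighbours in this order differed, their log2(TPM + 1) difference in each library was set against the replicate error. That limit is the size of log2 TPM ratio between the libraries that 95% of detected genes of like level stay under. It was 0.92 for genes at 1 to 3 TPM (2304 genes), 0.79 at 3 to 10 TPM (3398 genes) and 0.37 at 10 to 30 TPM (4154 genes). Genes with a mean under 1 TPM took the limit for 1 to 3 TPM. Of the 9 steps in the order, 1 passed the limit in both libraries, that between Ptgis and Ptges. The other 8 did not pass on this scale, on which adding 1 TPM shrinks differences between low genes while the limit comes from plain TPM ratios. With 0.1 TPM added instead, 3 steps passed, the others being Ptger1 over Ptger3 and Ptgs2 over Ptger2. By replicate 1 alone 2 steps passed, and by replicate 2 alone 3.

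**Figure D1:**
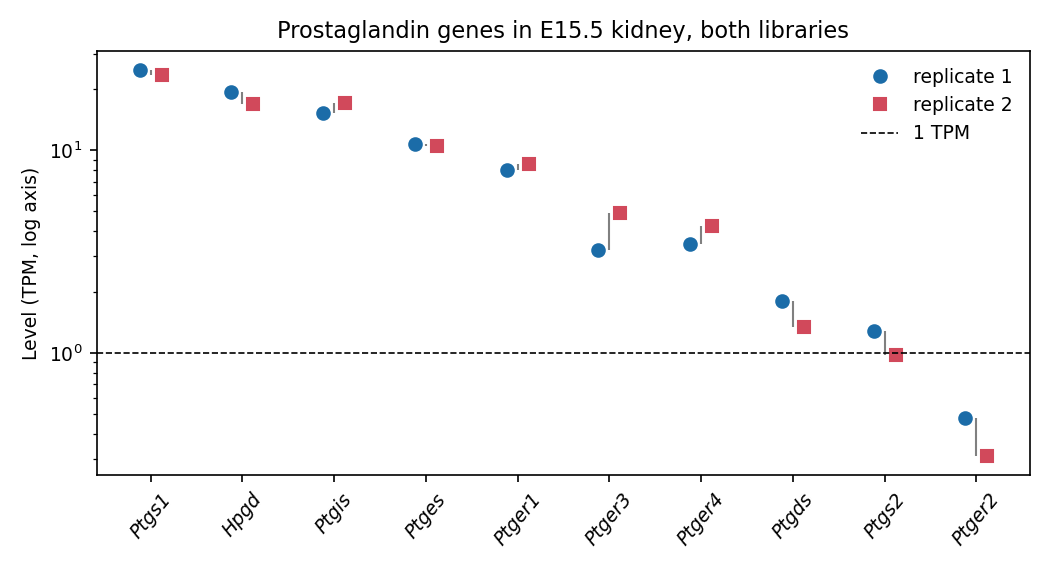
TPM on a log axis for each of the 10 genes, ordered by mean, with a circle for replicate 1, a square for replicate 2 and a line joining them. Ptgs1 leads at 24.9 and 23.6 TPM, and Ptger2 lies under the dashed 1 TPM line in both libraries.

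The constitutive cyclooxygenase Ptgs1 was the highest of the 10 genes and its inducible counterpart Ptgs2 the second lowest. By protein-coding transcripts alone Ptgs1 was still the highest and Ptgds, at 0.23 and 0.37 TPM, took the lowest place, below Ptgs2 and Ptger2 in mean TPM. Ptgs1 (mm10 chr2:36230426-36252272, plus strand) had 24.9 TPM from 1483 counts in replicate 1 and 23.6 TPM from 1518 counts in replicate 2, a mean of 24.3 ± 0.926 TPM (SD, n = 2). It stood above 56.1% of detected protein-coding genes. Ptgs2 (chr1:150100031-150108227, plus strand) had 1.28 TPM from 101 counts and 0.98 TPM from 112 counts, so it met the detection threshold in replicate 1 and missed it in replicate 2. Its exact Poisson intervals at 95% were 82.3 to 123 counts in replicate 1 and 92.2 to 135 counts in replicate 2, which overlap and cover counting error only. Ptgs1 exceeded Ptgs2 by 3.57 ± 0.09 on the log2(TPM + 1) scale (SD, n = 2), past the limit of 0.92 in both libraries. The 8 markers of the immediate early response, the class of rapidly induced genes to which Ptgs2 is usually assigned, summed to 166 TPM in replicate 1 and 171 TPM in replicate 2, with Fosb alone under 1 TPM in both.

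Among the terminal synthases of the 10 genes, Ptgis and Ptges were well above Ptgds. Ptgis, which makes prostacyclin and is typical of vessel walls, lies at chr2:167191805-167240604 on the minus strand. It had 15.3 TPM (743 counts) in replicate 1 and 17.1 TPM (907 counts) in replicate 2. Ptges, the inducible microsomal prostaglandin E synthase, lies at chr2:30889471-30929863 on the minus strand and had 10.7 TPM (694 counts) and 10.5 TPM (781 counts). Ptgis exceeded Ptges by 0.56 ± 0.13 on the log2(TPM + 1) scale, past the limit of 0.37 in both libraries. Ptgds, the lipocalin-type prostaglandin D synthase best known from meninges and choroid plexus, lies at chr2:25466709-25470046 on the minus strand. It had 1.81 TPM from 26 counts in replicate 1 and 1.34 TPM from 23 counts in replicate 2, with Poisson intervals of 17.0 to 38.1 and 14.6 to 34.5 counts. Ptgds minus Ptges was -2.18 ± 0.17 and Ptgds minus Ptgis -2.74 ± 0.30 on that scale, both past the limit of 0.92 in both libraries. Of 4 meninges and choroid plexus markers 3 were detected, with sums of 36.4 and 34.9 TPM that were mostly Slc47a1 (19.2 and 20.1 TPM) and Kl (10.6 and 9.74 TPM), genes that kidney also expresses. Slc13a4 had 0.27 and 0.15 TPM.

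Ptges was lower than both other E synthases of the pathway at the gene level. Ptges2, a second membrane-associated E synthase, had 24.8 and 25.1 TPM, and Ptges3, a cytosolic E synthase that is also a cochaperone of Hsp90, had 468 and 399 TPM. The differences of Ptges from them were -1.16 ± 0.03 and -5.22 ± 0.14 log2 units. The first of these rested on transcripts not annotated as protein-coding, which held most of Ptges2. From protein-coding transcripts alone Ptges had 7.42 and 7.90 TPM and Ptges2 had 6.31 and 6.0 TPM, a difference of 0.28 ± 0.10 that did not pass its limit of 0.60.

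Hpgd, the dehydrogenase that starts the inactivation of E2 and F2alpha, was expressed at nearly the level of Ptgs1. It lies at chr8:56294585-56321043 on the plus strand and had 19.5 TPM (773 counts) in replicate 1 and 16.9 TPM (722 counts) in replicate 2, with a single transcript in the table. Hpgd differed from Ptgs1 by -0.40 ± 0.08 on the log2(TPM + 1) scale, which passed the limit of 0.37 in replicate 2 (-0.46) and not in replicate 1 (-0.34). It exceeded Ptgs2 by 3.17 ± 0.01 and Ptges by 0.72 ± 0.12, both past their limits. Slco2a1, the transporter that brings prostaglandins into the cell where Hpgd acts, had 3.77 and 4.5 TPM, and Hpgd exceeded it by 1.90 ± 0.28.

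The E2 receptors were led by Ptger1 at the gene level, and Ptger2 was the lowest of them. Ptger1 (chr8:83666678-83672753, plus strand) had 8.03 TPM (710.1 counts) in replicate 1 and 8.56 TPM (824 counts) in replicate 2. Ptger3 (chr3:157566892-157645888, plus strand) had 3.21 TPM (154 counts) and 4.90 TPM (258 counts). Ptger4 (chr15:5206661-5244187, minus strand) had 3.47 TPM (271 counts) and 4.25 TPM (359.7 counts). Ptger2 (chr14:44988195-45003820, plus strand) had 0.48 TPM from 42 counts and 0.31 TPM from 29 counts, with Poisson intervals of 30.3 to 56.8 and 19.4 to 41.6 counts. Of the summed TPM of the 4 receptors, Ptger1 held 52.9% in replicate 1 and 47.5% in replicate 2, Ptger3 21.1% and 27.2%, Ptger4 22.8% and 23.6%, and Ptger2 3.16% and 1.72%.

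Each of the other E2 receptors exceeded Ptger2 past the limit in both libraries. Since Ptger2 lay under 1 TPM, that limit was the one for genes at 1 to 3 TPM. On the log2(TPM + 1) scale Ptger1 minus Ptger2 came to 2.74 ± 0.18, Ptger2 minus Ptger3 to -1.84 ± 0.47 and Ptger2 minus Ptger4 to -1.80 ± 0.29 (SD, n = 2). Ptger3 and Ptger4, which act in opposite directions on cyclic AMP, differed by 0.04 ± 0.18, with Ptger4 higher in replicate 1 and Ptger3 higher in replicate 2. Ptger1 exceeded Ptger4 by 0.94 ± 0.11, past the limit of 0.79, and exceeded Ptger3 by 0.90 ± 0.29, which missed it in replicate 2 at 0.70. With 0.1 TPM added in place of 1, Ptger1 exceeded Ptger3 by 1.30 in replicate 1 and 0.792 in replicate 2, just past the limit of 0.787.

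Most of the Ptger1 signal was assigned to a transcript other than its coding one, in an estimated split of reads. The retained-intron transcript Ptger1-202 held 77.4% of the gene's transcripts in replicate 1 and 73.1% in replicate 2, from 514 and 557 counts. Ptger1-201, the transcript for the 405-residue receptor, had 1.82 TPM from 196 counts and 2.30 TPM from 268 counts. In GENCODE M21 the kept intron is 420 bases long (mm10 chr8:83668847-83669266, plus strand) and lies between coding exons. The sequences below, from the GENCODE M21 transcripts, show the edges of that intron in each transcript, which also differ in length outside it (Ptger1-201 has 4694 bases in M21 and 4509 in the deposited table, Ptger1-202 has 3474 in both). Capitals mark intron bases, which begin with GT and end with AG, and lower case marks exon bases, with 15 on each side.
Ptger1-202, start of the kept intron: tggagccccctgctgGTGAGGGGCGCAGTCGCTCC
Ptger1-202, end of the kept intron: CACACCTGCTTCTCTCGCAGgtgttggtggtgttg
Ptger1-201, spliced: tggagccccctgctggtgttggtggtgttg

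Some of the reads counted to Ptger1 could be assigned to more than 1 gene. The deposited posterior SD of its count, which is above 0 in that case, was 8.05 counts in replicate 1 and 8.56 in replicate 2. For its transcripts that SD was 19.1 and 19.8 counts for Ptger1-202 and 18.6 and 19.8 counts for Ptger1-201. Whether counting used strand is not given in the sources used here.

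By protein-coding transcripts alone the order of the E2 receptors changed. Ptger3 had 3.20 and 4.90 TPM, Ptger4 3.37 and 4.04 TPM, Ptger1 1.82 and 2.30 TPM, and Ptger2 0.48 and 0.31 TPM, so Ptger1 ranked below Ptger3 and Ptger4 in both libraries. Its share of their sum was 20.2% ± 0.428 (SD, n = 2), against 50.2% ± 3.79 at the gene level. The difference between Ptger1 and Ptger4 became -0.62 ± 0.01 and that between Ptger1 and Ptger3 -0.71 ± 0.19 on the log2(TPM + 1) scale, and neither passed the limit of 0.84 in both libraries. Ptger1 and Ptgds were the 2 detected genes of the 10 whose protein-coding transcripts held under 50% of the gene's TPM in both libraries. Of all 13387 detected protein-coding genes 7.07% did so.

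**Figure D2:**
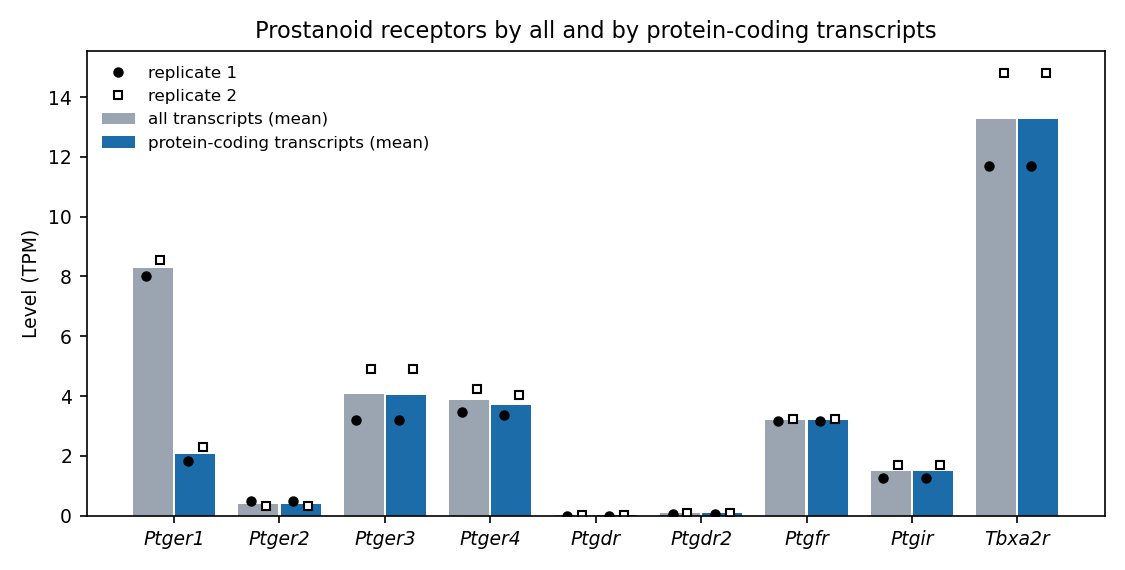
Mean TPM of the 9 prostanoid receptors from all transcripts (grey) and from protein-coding transcripts alone (blue), with circles for replicate 1 and squares for replicate 2. Ptger1 drops to 1.82 and 2.30 TPM, and Tbxa2r at 11.7 and 14.8 TPM is the highest on either measure.

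Ptger3, the receptor that mainly couples to inhibitory G proteins, was divided differently among its coding transcripts in the 2 libraries. Its known mouse isoforms share the receptor body and differ in the C-terminal tail inside the cell. Ptger3-202 (366 residues) held 54.4% in replicate 1 and 100% in replicate 2, and Ptger3-201 (362 residues) held 45.6% and 0%. In counts, Ptger3-202 had 85.3 in replicate 1 and 258 in replicate 2, and Ptger3-201 had 68.7 and 0. The deposited posterior SD of these counts was 19.9 in replicate 1 and 16.9 in replicate 2. The shift of 45.6 percentage points was larger than that of 96.9% of the 1217 genes with several transcripts and a mean of 100 to 300 counts, whose median shift was 7.39 points. The tails come from M21, where Ptger3-202 has an exon of 89 bases (mm10 chr3:157641721-157641809, plus strand) that Ptger3-201 skips. Capitals mark the coding bases after the last shared coding exon up to the stop codon, 90 and 78 bases or 30 and 26 residues, and lower case the last 15 shared bases.
Ptger3-202: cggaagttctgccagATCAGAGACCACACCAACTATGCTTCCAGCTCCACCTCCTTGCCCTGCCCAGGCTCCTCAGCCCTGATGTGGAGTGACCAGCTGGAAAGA
Ptger3-201: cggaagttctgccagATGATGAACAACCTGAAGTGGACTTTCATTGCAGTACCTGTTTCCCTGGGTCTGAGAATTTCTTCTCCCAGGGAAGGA
Ptger3-202 had the same length in the deposited table as in M21 (2097 bases), whereas Ptger3-201 had 2018 and 3148 bases, so its deposited form is not fully the one drawn on here.

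Ptger4, which raises cyclic AMP, was split between a pair of coding transcripts with different starts. Ptger4-201 (513 residues) held 77.9% in replicate 1 and 57.8% in replicate 2, from 209.7 and 205 counts. Ptger4-202 (488 residues) held 19.3% and 37.3%, from 52.6 and 134 counts. The deposited posterior SD of the counts of Ptger4-201 was 31.3 in replicate 1 and 34.4 in replicate 2, so the counts of Ptger4-201 differed between the libraries by less than that SD, while those of Ptger4-202, with the same SD to within 1 count, differed by more. The shift of 20.1 percentage points in Ptger4-201 was larger than that of 94.9% of the 2368 genes with several transcripts and a mean of 300 to 1000 counts. Ptger4-201 led in both libraries. Its coding sequence begins 75 bases, or 25 residues, before that of Ptger4-202. In the M21 sequences (mm10 chr15, minus strand) capitals mark those bases and lower case the first 15 that both share.
Ptger4-201: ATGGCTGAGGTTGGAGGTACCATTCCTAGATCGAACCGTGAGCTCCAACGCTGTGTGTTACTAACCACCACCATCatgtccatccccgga
Ptger4-202: atgtccatccccgga

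The remaining genes had simpler transcript profiles, apart from the low ones. All 8 genes with several transcripts had the same leading transcript in both libraries, as did 89.2% of 11053 protein-coding genes with several transcripts and a mean of 10 counts or more. Ptgs1-201, coding for the full-length enzyme, held 84.8% and 85.1%. Ptgis-201 held 96.5% and 100%, and Ptges-202 held 69.1% and 75.3%. The rest of Ptges was Ptges-201, a short processed transcript of 703 bases with 49.1 and 41.4 counts. Hpgd and Ptger2 had a single transcript each.

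In Ptgds and Ptgs2 a few reads set the shares. For Ptgds the processed transcript Ptgds-204 held 84.0% and 64.6%, from 20.4 and 12.5 counts, and the coding transcripts together came to 0.23 and 0.37 TPM. The Ptgs2 fragment Ptgs2-202, 358 bases long, held 27.8% in replicate 1 from 2.27 counts and was listed at 0 in replicate 2. The full-length Ptgs2-201 (4453 bases) had 0.93 TPM in replicate 1 and 0.98 TPM in replicate 2, both under 1 TPM. The gene-level difference between the libraries, 1.28 against 0.98 TPM, appeared with the short transcript and not with the full-length one.

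**Figure D3:**
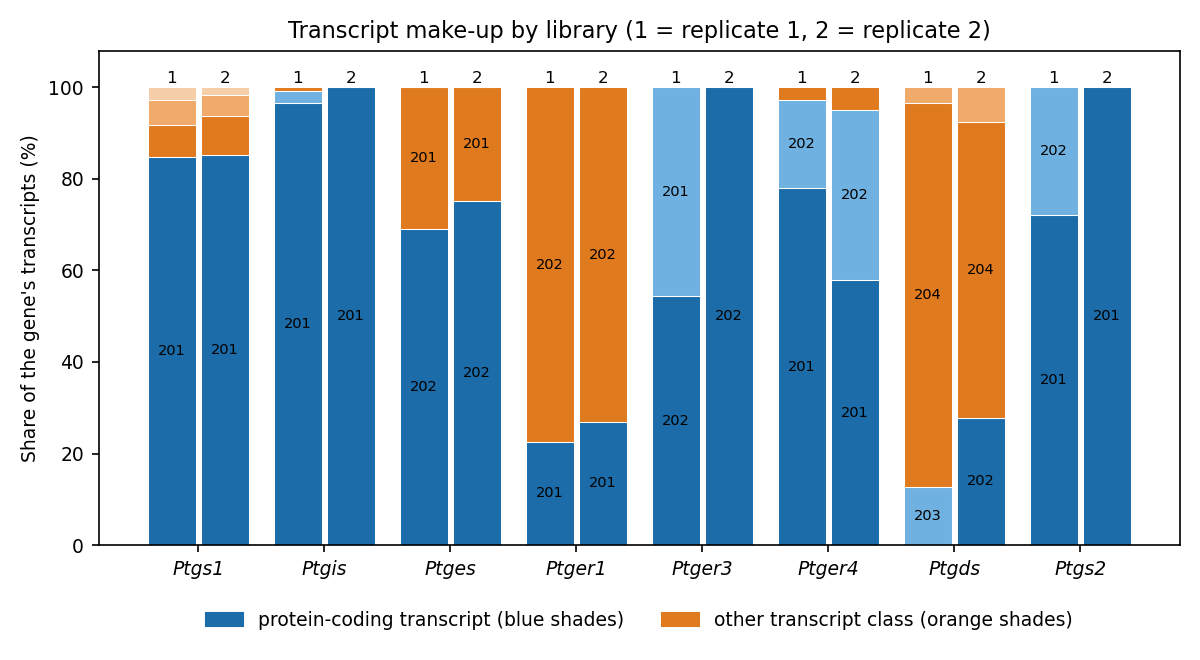
Make-up of each gene by annotated transcript, as a percent of its transcripts, in replicate 1 (left bar) and replicate 2 (right bar), for the 8 genes with several transcripts. Blue shades are protein-coding and orange shades other classes, and numbers in the bars are transcript suffixes. Ptger1 is mostly orange in both libraries, and Ptger3 is divided in replicate 1 only.

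None of the 10 genes had a TPM ratio of 2-fold or more between the pools. Of all 13507 genes with a mean of 100 counts or more, 1.23% did, and 8 of the 10 genes reached that count while Ptgds and Ptger2 did not. The log2 TPM ratio of replicate 1 over replicate 2 ran from -0.61 (Ptger3) to 0.63 (Ptger2), with 6 genes higher in replicate 1 and 4 higher in replicate 2. The signs of Ptgs2 and Ptges turned when counts were scaled by TMM or DESeq2 factors, and those of Ptges and Ptgds when only protein-coding transcripts were used. Count ratios per depth were set beside exact Clopper-Pearson intervals at 95%, which cover counting error only. Ptger3 had a count ratio of 0.649 (0.528 to 0.796), and its TPM ratio of 0.655 stayed inside the replicate error of genes of like level, 1.73-fold. Ptger4 had 0.819 (0.697 to 0.961), Ptgis 0.890 (0.807 to 0.983) and Hpgd 1.16 (1.05 to 1.29), each with an interval that leaves out 1 and a TPM ratio inside the replicate error. The intervals of Ptgs1, Ptges, Ptger1, Ptger2, Ptgds and Ptgs2 included 1. Those of Ptger2 (0.958 to 2.62) and Ptgds (0.674 to 2.26) also reached past 2-fold, so a difference of that size is not excluded for them. Ptgs2 had a count ratio of 0.981 (0.742 to 1.29) where its TPM ratio was 1.31.

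The genes higher in replicate 2 were Ptger3, Ptger4, Ptgis and Ptger1, the last with a count interval that includes 1. Several marker lists were also higher in replicate 2. Those of collecting duct and ureteric tree, loop of Henle and macula densa, skeletal muscle, and meninges and choroid plexus had higher sums in replicate 1. Within the collecting duct list, Hsd11b2 (24.7 and 28.8 TPM) and Ret (8.58 and 9.76 TPM) were higher in replicate 2. The other 6 genes were higher in replicate 1 by TPM, and only Hpgd among them had a count interval that leaves out 1. The signs of Ptgs2, Ptges and Ptgds turned in some settings, as given above. Of 8 smooth muscle and ureter wall markers 7 were detected and 5 were over 2-fold higher in replicate 2, among them Myh11 at 5.54 and 24.1 TPM. Tagln and Smtn were higher there by less than 2-fold, and Des had 44.3 and 43.3 TPM. All 6 adrenal medulla and nerve markers and 5 of 6 adrenal cortex markers were over 2-fold higher in replicate 2. Of 8 interstitial stroma markers all were detected, with sums of 1823 and 1938 TPM, and all 6 endothelial markers, with sums of 316 and 331 TPM. None of these markers was at 0. The part of these tissues in the ratios of the prostaglandin genes was not tested.

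Markers of blood cells were summed as well. They came to 75.8 TPM in replicate 1 and 85.7 TPM in replicate 2 over 6 macrophage markers, 90.2 and 102 TPM over 6 mast cell markers, and 40.7 and 45 TPM over 6 megakaryocyte and platelet markers. Of the mast cell sum Hdc alone made up 69.6 and 82.7 TPM, Cpa3, Tpsb2 and Cma1 were each higher in replicate 1 (3.95 and 2.58 TPM for Cpa3), and Mcpt4 had 0 counts in both. The 4 mesothelium markers summed to 69.7 and 70.3 TPM, of which Krt19 made up 62.2 and 57.0 TPM, while Upk3b, Lrrn4 and Msln were each higher in replicate 2 (3.22 and 7.14 TPM for Upk3b). The 6 gonad markers summed to 9.21 and 15.3 TPM. Of that sum Inha made up 4.93 and 9.07 TPM and Nr5a1 1.04 and 2.77 TPM. Gata4 and Insl3 were slightly higher in replicate 2, whereas Amh (0.08 and 0.05 TPM) and Dhh (1.57 and 1.47 TPM) were higher in replicate 1. None of the 4 lung epithelium markers was detected at 1 TPM, and they summed to 0.27 and 0.36 TPM. Sftpc had 4 counts in replicate 1 and 6 in replicate 2, and Scgb1a1 had 0 counts in both. Whether lung tissue was present was not tested.

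**Figure D4:**
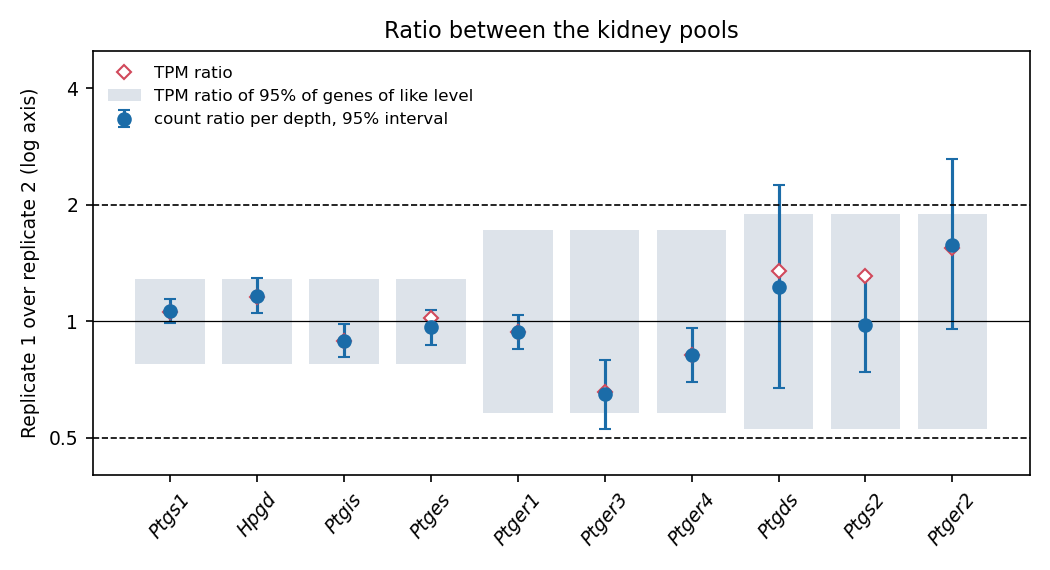
Ratio of replicate 1 over replicate 2 on a log axis: filled circles are count ratios per depth with exact 95% intervals, open diamonds are TPM ratios. Grey bars span the TPM ratios of 95% of detected genes of like level (for Ptger2, under 1 TPM, those at 1 to 3 TPM), and dashed lines mark 2-fold. Ptger3 at 0.649 is the lowest point. No ratio point passes a dashed line, but the intervals of Ptger2 (to 2.62) and Ptgds (to 2.26) do.

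Of 48 other genes of the wider prostanoid pathway 37 were detected, beside the 62.3% of all protein-coding genes given above, and the count differed between lists. Of 9 genes for arachidonate release and recycling 7 were detected. The lysophospholipid acyltransferase Lpcat3 had 64.0 ± 1.36 TPM, the secreted phospholipase Pla2g12a 33.9 ± 0.099 TPM and the cytosolic phospholipase Pla2g4a, the main supplier of arachidonate to cyclooxygenases, 33.0 ± 2.07 TPM (SD, n = 2). Pla2g5, a secreted phospholipase, was under 1 TPM in both at 0.44 and 0.30 TPM. All 7 other prostanoid synthases were detected, led by Ptges3 at 434 ± 48.6 TPM, the aldo-keto reductase Akr1b3 at 153 ± 6.01 TPM and the carbonyl reductase Cbr1 at 113 ± 2.38 TPM.

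The other prostanoid receptors ranged widely. The thromboxane receptor Tbxa2r had 11.7 TPM in replicate 1 and 14.8 TPM in replicate 2, and held 38.2% ± 1.28 of the summed TPM of all 9 prostanoid receptors. The F2alpha receptor Ptgfr had 3.17 and 3.23 TPM and the prostacyclin receptor Ptgir 1.26 and 1.71 TPM. Ptgis exceeded Ptgir by 2.80 ± 0.08 log2 units. Both D2 receptors were nearly without reads. Ptgdr had 0 counts in replicate 1 and 2 in replicate 2, at or under the floor of 3 counts, and Ptgdr2 had 4.11 and 5.10 counts (0.07 and 0.08 TPM). Ptgds exceeded Ptgdr by 1.34 ± 0.21 by all transcripts, past the limit of 0.92 taken from genes at 1 to 3 TPM. By protein-coding transcripts the difference was 0.36 ± 0.09 and did not pass.

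Levels downstream of reception and in breakdown differed between lists. Of 14 genes for G proteins and cyclic AMP partners 12 were detected, led by the stimulatory G protein Gnas at 1295 ± 45.2 TPM and the inhibitory Gnai2 at 337 ± 9.42 and Gnai3 at 143 ± 0.884 TPM. The adenylyl cyclases Adcy5, at 0.54 TPM in both libraries, and Adcy9, at 0.99 and 0.97 TPM, were the 2 under 1 TPM. All 4 genes of transport and further breakdown were detected, with list medians of 12.1 TPM in replicate 1 and 12.9 TPM in replicate 2, with the reductases Ptgr2 at 21.2 ± 1.05 TPM and Ptgr1 at 19.1 ± 1.23 TPM and the exporter Abcc4 at 5.96 ± 0.0849 TPM. In the leukotriene branch, which draws on the same arachidonate, 4 of 9 genes were detected. Lta4h had 109 ± 1.73 TPM, Alox5ap 8.48 ± 0.106 TPM and Alox12 4.80 ± 0.424 TPM, while Alox5, the enzyme that opens the branch, had 0.55 and 0.75 TPM. The receptors Ltb4r1 at 0.57 and 0.59 TPM and Cysltr2 at 0.17 and 0.05 TPM were also under 1 TPM.

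**Figure D5:**
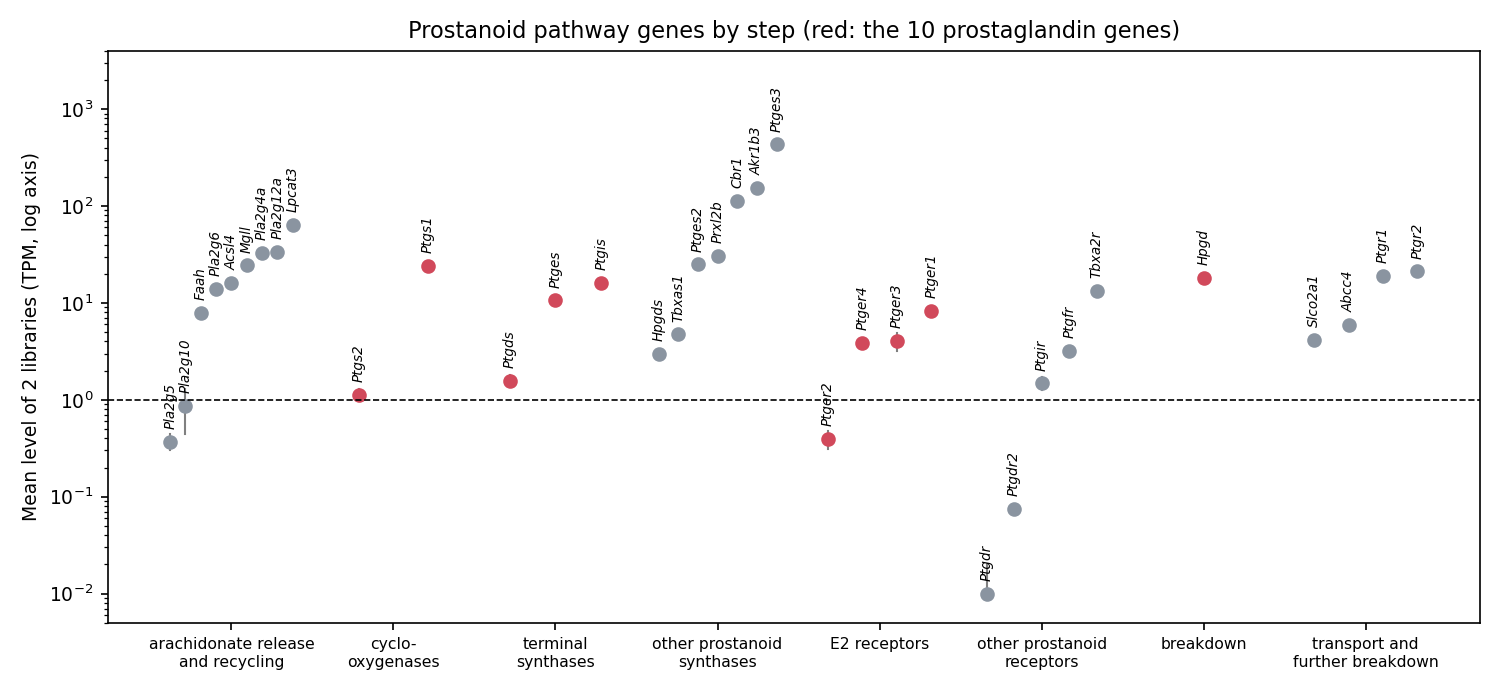
Mean TPM of the 2 libraries on a log axis for the genes of arachidonate release, prostanoid synthesis, reception, transport and breakdown (the G protein and leukotriene lists are not drawn), with lines spanning both libraries and the 10 prostaglandin genes in red. Ptgdr, whose mean is 0.01 TPM, is the lowest point, Ptges3 at 434 TPM the highest, and the dashed line marks 1 TPM.

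Of 18 gene pairs compared, 15 differed beyond the replicate error in both libraries with the same sign. The 3 that did not were Hpgd with Ptgs1, Ptger1 with Ptger3, and Ptger3 with Ptger4. The pairs were chosen with earlier results of these data known, and no share over other gene pairs was computed. The count is therefore not a result about the pathway. With protein-coding transcripts alone 12 pairs passed, all of them among the 15 and with the same sign. The pairs Ptger1 with Ptger4, Ptges with Ptges2 and Ptgds with Ptgdr were the 3 that no longer did. Some of the 10 genes overlap exons of genes on the opposite strand in M21. Those in the tables included 1110018N20Rik (0.46 and 0.71 TPM) over Ptgis, Gm17173 (0 counts in both) over Ptger2, and Gm15937 (0.25 and 0.04 TPM) and Ttc33 (37.1 and 36.6 TPM) over Ptger4. The posterior SD of the count of 1110018N20Rik equalled that of Ptgis, and that of Gm15937 equalled that of Ptger4, in both libraries and at most 2.20 counts. The posterior SD was 0 for the 7 genes other than Ptgis, Ptger1 and Ptger4.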

How the data were processed

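Total RNA-seq of embryonic kidney was deposited as a gene table and a transcript table for each of 2 libraries. Per the labels, extraction used mirVana, fragments measured above 200 nt, and spike-ins were added. The build is mm10 and the annotation GENCODE M4, per the text files the authors deposited. The sources used here do not name the aligner, the quantifier or the use of strand. The deposited expected counts are estimated reads. The deposited TPM and FPKM are the authors' length-adjusted values, and the percent of a gene's transcripts and the posterior SD of the counts are the authors' columns, per the file headers.

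Gene names and positions were taken from GENCODE M21, also on mm10, by identifier (98.0% of genes matched). Coding TPM is the sum over transcripts that M21 calls protein-coding. Genes matched 162 of 162 listed symbols, with Prxl2b found under its older name Fam213b. The genes, the 6 pathway lists, 17 marker lists and 18 pairs were chosen with earlier results of these data known. Named are the 10 genes, the 3 highest genes of each pathway list and any at less than 1 TPM in each library, the genes of each pair and overlapping genes. The values of 1 gene under this rule are not reported here. The single marker genes were named after their values were seen. Pair differences used a pseudocount of 1. No test between 2 single pools was possible, and no p was computed for differences between genes over 2 libraries. Intervals speak for counting error alone, as no molecular identifiers are named. The 2-fold rule and the count intervals were tried on simulated Poisson counts with planted changes and no variation between pools beyond counting. They were therefore not tried under the replicate error of the real libraries. The pair rule was tried on a few hand-set values only. Tools were Python 3.11.15, pandas 2.3.3, SciPy 1.17.1, edgeR 4.0.16 (TMM factors only) and DESeq2 1.42.0 (size factors only, on counts rounded to whole numbers).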

Additional observations from a re-analysis of the deposited data

How the results depend on the processing

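With a threshold of 5 TPM, 5 of the 10 genes were detected in place of 8, and the other settings gave 7 (FPKM, and coding transcripts alone) to 9. Leaving out replicate 1 gave 8 and leaving out replicate 2 gave 9. Neighbours past the limit numbered 3 with a pseudocount of 0.1 in place of 1, and 2 to 3 when a replicate was left out (main value 1). Gene pairs past the limit ranged from 12 (no filter on low values, and coding transcripts alone) to 16, against 15, and were 16 with either replicate left out. A 1.5-fold threshold between the pools gave 1 gene, Ptger3, in place of 0, with 3.14% of all genes past it. The 3-fold threshold, lower count minimums and other scalings gave 0. Of all genes tested 0.437% passed 3-fold, and 3.37% passed 2-fold at a minimum mean count of 20. With no minimum above 1, 15.3% passed 2-fold, and with the other scalings 1.15% to 1.62% did. Among protein-coding transcripts alone 9 genes had the same leading transcript in both libraries, and Ptgds did not. For Ptgs1, Ptges, Hpgd, Ptger1 and Ptger2 this was fixed in advance, as each has a single protein-coding transcript. No share over all genes was computed for this setting. Of 50 recomputed log2 ratios between the pools 46 moved by less than their counting error. Those that moved were Ptgs2 to -0.02 with TMM and to -0.02 with DESeq2 size factors (from 0.39), and, by coding transcripts, Ptgds to -0.69 (from 0.43) and Ptger1 to -0.34 (from -0.09). The setting with coding transcripts was added after seeing the data. No paired analysis was possible because there is 1 group.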
